A study of Mus musculus with 8 samples.

Results

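The 10 genes described here build and load MHC class II molecules, and were chosen by symbol from the 55450 gene rows measured in mouse liver cells. They are H2-Aa, H2-Ab1 and H2-Eb1, which encode chains of the peptide-presenting molecules H2-A and H2-E, Cd74 (the invariant chain), Ciita, H2-DMa, H2-DMb1 and H2-DMb2, and H2-Oa and H2-Ob. All 10 had UMIs in the cells kept, as did 34289 of the 55450 rows. The livers came from 8 wild-type C57BL/6 mice, of which 2 controls had a normal diet and drinking water. A further 3 mice had a high-fat diet with fructose and glucose in the water and weekly intraperitoneal carbon tetrachloride (HFD+F+CCl4), and 3 had a western diet with the same additions (WD+F+CCl4). Both models develop non-alcoholic steatohepatitis (NASH) with fibrosis, and because every NASH mouse received fructose, carbon tetrachloride and a fatty diet together, the parts of these agents cannot be told apart.

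MHC class II molecules present peptides from engulfed material to CD4 T cells. The α and β chains assemble with Cd74, which blocks the peptide groove and directs the complex to endosomes, where proteases cut Cd74 down to a short fragment. H2-DM then exchanges this fragment for other peptides, and H2-O, made mainly by B cells, restrains H2-DM. Ciita is the transcriptional coactivator on which the whole set depends, and it acts through factors bound to shared promoter elements known as the X and Y boxes. In the liver, dendritic cells (DCs), B cells, Kupffer cells and macrophages recruited from blood monocytes are the usual presenting cells. C57BL/6 mice lack a working α chain of H2-E, so their H2-Eb1 transcripts are not thought to give H2-E at the cell surface.

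Of the 10 genes, 8 lie in the class II region of chromosome 17 (GRCm38). From H2-Oa (ENSMUSG00000024334, chr17:34092340-34095234) the region runs through H2-DMa (ENSMUSG00000037649, chr17:34119541-34139101), H2-DMb2 (ENSMUSG00000037548, chr17:34143307-34151555) and H2-DMb1 (ENSMUSG00000079547, chr17:34153072-34160230), then H2-Ob (ENSMUSG00000041538, chr17:34238903-34254414), H2-Ab1 (ENSMUSG00000073421, chr17:34257689-34269419), H2-Aa (ENSMUSG00000036594, chr17:34282744-34287823) and H2-Eb1 (ENSMUSG00000060586, chr17:34305867-34316674). H2-Aa lies on the minus strand and the others on the plus strand. Ciita (ENSMUSG00000022504) lies apart at chr16:10480059-10528418, and Cd74 (ENSMUSG00000024610) on another chromosome. Promoter windows, 250 bases before to 50 after a start, were matched for 7 of the 10 genes in RefSeq (GRCm38.p6), and H2-Ab1, Ciita and Cd74 had none in the table.

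The promoters are shown because the factors that recruit Ciita bind there. Each line is 55 bases read 5′ to 3′ on the strand of the gene, and the capitals mark matches to AACNNATG, part of the X box, and TGATTGG, which holds the CCAAT element of the Y box in reverse.
H2-DMb2 (chr17:34145117-34145171, plus strand): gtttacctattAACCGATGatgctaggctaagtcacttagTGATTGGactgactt
H2-DMb1 (chr17:34153088-34153142, plus strand): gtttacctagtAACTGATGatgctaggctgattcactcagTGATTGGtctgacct
H2-Ob (chr17:34238806-34238860, plus strand): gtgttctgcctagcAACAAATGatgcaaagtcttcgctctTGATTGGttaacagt
H2-Eb1 (chr17:34305766-34305820, plus strand): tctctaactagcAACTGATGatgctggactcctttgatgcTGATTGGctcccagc
H2-Aa (chr17:34287859-34287913, minus strand): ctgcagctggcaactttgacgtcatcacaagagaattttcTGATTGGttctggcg
H2-Oa (chr17:34092294-34092348, plus strand): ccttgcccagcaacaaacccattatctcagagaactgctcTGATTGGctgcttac

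TGATTGG was found in 6 of the 7 matched genes, between 45 and 92 bases before the RefSeq start of the window. On either strand it occurs in 2568 of all 32851 windows (7.82%). AACNNATG was found in 4 of the 7 genes, and in 2912 of all windows (8.86%). Both together on the forward strand, within 40 bases, occur in 14 of the 32851 windows (0.0426%), and H2-DMb2, H2-DMb1, H2-Ob and H2-Eb1 are 4 of these. Their motif starts lie 29, 29, 26 and 28 bases apart. The letters of neither motif were found in the 2 windows of H2-DMa. These begin at chr17:34122582 and chr17:34125268, inside the gene, and no window covered its first base at 34119541. The window of H2-DMb2 also begins inside the gene, at chr17:34144999, and does not cover its first base at 34143307. The stretch printed for H2-DMb1 lies after the first base of that gene, at 34153072. A match describes the letters and not a bound site.

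Single cells were profiled with the 10x Genomics 3' kit, which counts each captured mRNA by a unique molecular identifier (UMI). The libraries held between 6135827 UMIs (control replicate 2) and 64855024 (WD+F+CCl4 replicate 3), and 80474 of 88581 barcodes had more than 500 genes and under 25% mitochondrial UMIs. Of the cells kept, 14956 came from control mice, 31956 from those with HFD+F+CCl4 and 33562 from those with WD+F+CCl4, with a median of 992.5 UMIs per cell in control replicate 2, 2397 in control replicate 1 and 3159 to 4278 in the NASH mice. Among the kept cells, 732 barcode sequences occurred in more than 1 library (1467 cells). The cells were clustered without the class II genes, and clusters were named by markers that include none of them, so each name below is short for a cluster like that type, and a difference from the study may come from these rebuilt names. Levels are CPM, UMIs of a gene scaled to the same total of UMIs for each type and mouse with at least 20 cells, and since each mRNA is counted at its 3′ end they need no scaling by gene length.

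Conventional and mature DCs carried the highest mean class II levels in the liver over all mice. The summed level of H2-Aa, H2-Ab1 and H2-Eb1 was 23821 CPM ± 8934 in type 2 DCs, 23511 ± 3009 in type 1 DCs and 23268 ± 7940 in mature DCs (SD, n = 8 mice each). Trem2 macrophages, which are lipid-laden macrophages of injured liver, followed with 13111 ± 6402 (SD, n = 6), and B cells with 10100 ± 1234 (SD, n = 8). Kupffer cells had 6454 ± 5586 (SD, n = 5), plasmacytoid DCs 4746 ± 1029 and classical monocytes 3994 ± 1734 (SD, n = 8 each). Every pair of neighbours in this order overlapped between mice, so the order of neighbours is not fixed by these data. The Trem2 macrophage and Kupffer cell values come from NASH mice only. Pooled over the control mice, type 1 DCs had 21511 CPM and mature DCs 11921. Control type 2 DCs had 8667, below the 9239 of cluster 14, which held most control B cells. The lowest of the 17 named types were plasma cells with 1653 ± 639 (SD, n = 3), cholangiocytes with 1500 ± 984 (SD, n = 7) and hepatic stellate cells with 784 ± 429 (SD, n = 2).

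Class II UMIs were also found in T cells, and their level there is used as the background of these data. T cells of the mouse are not known to make class II molecules, yet their summed level was 1808 CPM ± 767 (SD, n = 8). It differed between T cell clusters, at 1806 CPM in cluster 11 and 3783 in cluster 27 of HFD+F+CCl4 mice. In WD+F+CCl4 mice these had 440 and 2514. Most control T cells lay in cluster 7, with 1162. The background of a mouse, and ratios to it, thus also depend on its mix of T cell clusters. Cd74 was at 874 and 2573 CPM in the T cells of the controls, at 1777, 1916 and 2276 in HFD+F+CCl4 mice and at 1089, 1662 and 849 in WD+F+CCl4 mice. The macrophage gene Lyz2 was also present there, at between 394 and 1244 CPM. Cd74 was detected in 42.4% and 44.7% of control T cells and in 28.3% to 84.7% of T cells in NASH mice, against 99.4% to 100% of B cells in any mouse. Counted at 1000 UMIs per cell, these shares became 18.3% to 44.4% and 13.9% to 62.4% of T cells, with 140 and 188 shallower cells left out, and at least 99.9% of B cells. Median depth was 1027 to 3000.5 UMIs in T cells and 1367 to 2029.5 in B cells. Ciita and H2-Ob were rarer in T cells, in 1.87% to 6.10% and 1.05% to 8.07% of them, against 27.3% to 49.6% and 55.5% to 81.8% of B cells.

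Set beside the T cells of the same mouse, the named types divided. The summed level of the H2-A and H2-E chains was above the T cells in 8 of 8 mice in type 1, type 2 and mature DCs (medians of 13.7, 13.5 and 13.5 times), B cells (5.93 times) and plasmacytoid DCs (2.68 times). It was above them in 6 of 6 mice in Trem2 macrophages (7.43 times), in 5 of 5 in Kupffer cells (3.10 times) and in 7 of 8 in classical monocytes (2.29 times). Patrolling monocytes exceeded the T cells in 4 of 7 mice, with a median ratio of 1.05, and endothelial cells in 4 of 7, with 1.11. Cholangiocytes did so in 2 of 7 mice, plasma cells in 0 of 3 and stellate cells in 0 of 2, so their levels of these chains are read here as background. Cd74 by itself was above the T cells in 4 of 7 mice in cholangiocytes (median ratio 1.02), in 2 of 3 in plasma cells (1.65) and in 0 of 2 in stellate cells. H2-DMb2 was above them in 3 of 3 mice in plasma cells (3.26). NK cells (6 of 7 mice, 1.73 times), hepatocytes (6 of 7, 1.63 times) and granulocytes (7 of 7, 1.30 times) lay little above the T cells.

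**Figure D1:**
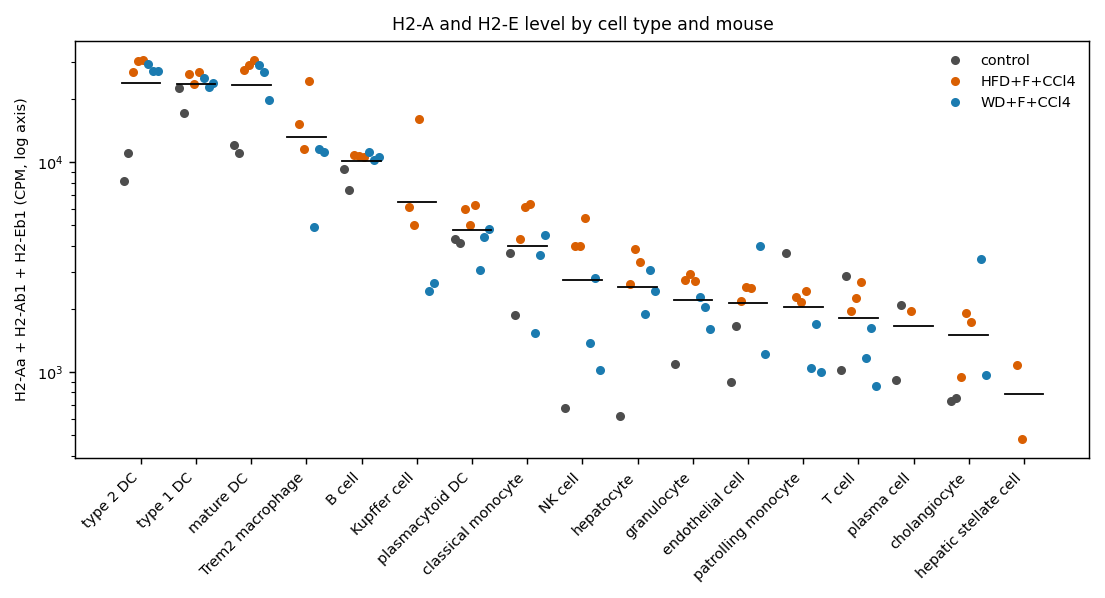
Summed CPM of H2-Aa, H2-Ab1 and H2-Eb1 on a log axis for 17 named cell types, ordered by their mean over mice; each point is 1 mouse with at least 20 cells of the type, coloured by group, and lines are means. The 3 leading DC types have means of 23268 to 23821, while T cells, which should lack these transcripts, sit at 859 to 2871.

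Cd74 and Ciita rose and fell over the types with the antigen-presenting chains, though the order of the types was not the same for Ciita. Over the 17 types, r of log2(CPM + 1) with the mean of the 3 chains was 0.989 for Cd74, 0.972 for Ciita and 0.938 for H2-DMa, as a description across types whose values share libraries. It was 0.850 for H2-DMb1, and fell off for H2-DMb2 (0.736), H2-Oa (0.671) and H2-Ob (0.638). Ciita was highest in type 1 DCs, with 446 CPM ± 46.2, then in type 2 DCs with 419 ± 165, mature DCs with 320 ± 147 and B cells with 277 ± 64.7 (SD, n = 8 each), and these neighbours overlapped. Trem2 macrophages had 127 ± 64.6 (SD, n = 6) and plasmacytoid DCs 85.4 ± 31.1 (SD, n = 8). In patrolling monocytes Ciita lay below the T cells of the same mouse in all 7 mice.

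Among 9555 genes with a mean of at least 10 CPM, the 10 genes outside the set with the pattern most like the chains over the 17 types were Ifi30 (r = 0.883), Wdfy4 (0.864), Fgd2 (0.850), Cd40 (0.837), Phf11b (0.827), Phf11a (0.821), Batf3 (0.820), Pkib (0.814), Plekha1 (0.805) and Tbc1d9 (0.801). Ifi30 is an endosomal thiol reductase that unfolds antigens, Cd40 a co-stimulatory receptor of presenting cells, and Wdfy4 and Batf3 are needed by type 1 DCs for cross-presentation and for their development. Wdfy4 was itself among the markers that named type 1 DCs.

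H2-DM, which edits the peptide, followed the DCs in its α chain. H2-DMa was at 866 CPM ± 53.4 in type 2 DCs, 802 ± 64.0 in type 1 DCs and 438 ± 63.2 in B cells (SD, n = 8 each). Its partners are encoded by a pair of near copies, and these parted by cell type. H2-DMb1 was at 589 CPM ± 107 in type 2 DCs, 578 ± 107 in type 1 DCs (SD, n = 8 each), 315 ± 139 in Trem2 macrophages (SD, n = 6) and 314 ± 161 in Kupffer cells (SD, n = 5). H2-DMb2 was highest in B cells, with 485 ± 68.0, and reached 200 ± 76.6 in mature DCs and 168 ± 76.0 in type 2 DCs (SD, n = 8 each). The 8 mice ranged from 370 to 619 CPM in B cells and from 63.3 to 313 in mature DCs, so H2-DMb2 in B cells exceeded that in every other named type with no overlap.

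The ratio of H2-DMb2 to H2-DMb1 was widely spread between types. It was 3.71 ± 1.18 in B cells and 1.08 ± 0.462 in mature DCs (SD, n = 8 each), against 0.277 ± 0.116 in type 2 and 0.174 ± 0.0560 in type 1 DCs (SD, n = 8 each). In Trem2 macrophages it was 0.0527 ± 0.0340 (SD, n = 6) and in Kupffer cells 0.0216 ± 0.00745 (SD, n = 5). The lowest B cell value was 2.38 and the highest mature DC value 1.75. Over the 17 types the copies correlated with r = 0.380, while H2-DMb2 correlated with r = 0.950 with H2-Ob and 0.929 with H2-Oa. Reads from the copies can be hard to tell apart, so the absolute split between them is uncertain.

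H2-O, the brake on H2-DM, marked B cells most through its β chain. H2-Ob was at 616 CPM ± 57.9 in B cells, 222 ± 38.4 in type 1 DCs, 163 ± 52.5 in type 2 DCs and 119 ± 51.8 in mature DCs (SD, n = 8 each), and the lowest B cell value, 535, lay above the highest type 1 DC value, 279. H2-Oa overlapped between these types, with 247 ± 54.7 in B cells, 239 ± 121 in type 2 DCs, 180 ± 80.0 in mature DCs and 164 ± 31.4 in type 1 DCs (SD, n = 8 each). In Kupffer cells both were nearly absent. H2-Oa was at 1.36, 3.89 and 0 CPM in the HFD+F+CCl4 mice and at 0 and 2.04 in the 2 WD+F+CCl4 mice with enough Kupffer cells, and H2-Ob lay below the T cells of the same mouse in all 5.

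Taking H2-Oa and H2-Ob UMIs over H2-DMa, H2-DMb1 and H2-DMb2 UMIs, the H2-O to H2-DM ratio was 0.818 ± 0.0933 in B cells, and its lowest B cell value, 0.656, was above the highest in mature DCs, 0.569. Mature DCs had 0.416 ± 0.118, type 1 DCs 0.262 ± 0.0399, type 2 DCs 0.241 ± 0.0899 and plasmacytoid DCs 0.228 ± 0.0698 (SD, n = 8 each). Trem2 macrophages had 0.0351 ± 0.0317 (SD, n = 6) and Kupffer cells 0.00648 ± 0.00587 (SD, n = 5). Mature DCs also stood low in H2-DM itself, with 3.12 ± 0.524 H2-DM UMIs per 100 UMIs of the H2-A and H2-E chains, against 10.6 ± 1.15 in B cells and 12.9 ± 1.55 in plasmacytoid DCs (SD, n = 8 each). Cd74 per UMI of these chains was 1.25 ± 0.0857 in B cells and 1.22 ± 0.109 in plasmacytoid DCs, and 0.817 ± 0.0515 in type 1 and 0.792 ± 0.0577 in mature DCs (SD, n = 8 each), with no overlap between the first and the second pair.

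**Figure D2:**
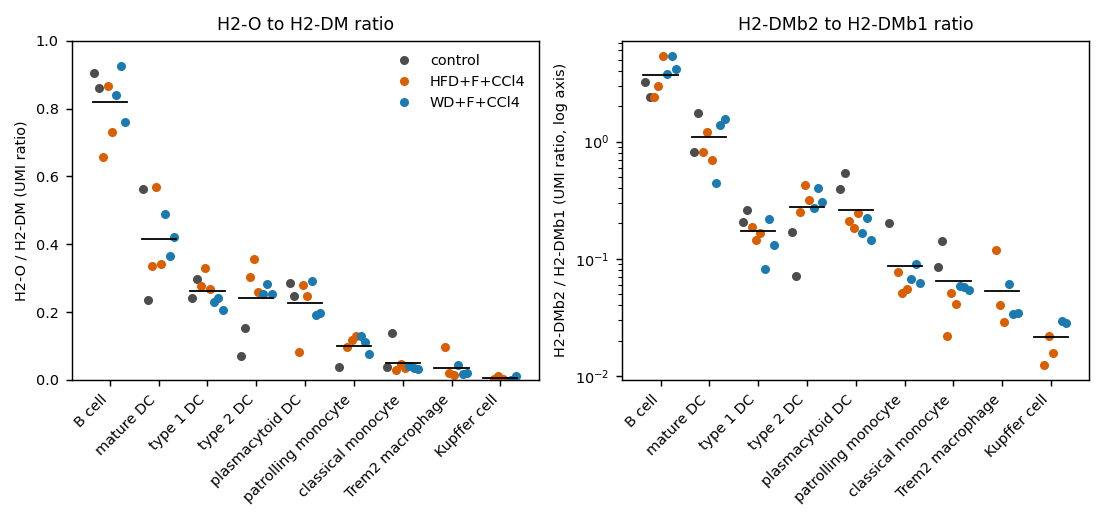
UMI ratios of H2-O to H2-DM (left, linear axis) and of H2-DMb2 to H2-DMb1 (right, log axis) in 9 cell types; each point is 1 mouse, coloured by group, and lines are means. B cells lead both ratios, at means of 0.818 and 3.71, and Kupffer cells are lowest, at 0.00648 and 0.0216.

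Among the named types, the holders of the class II transcripts differed between the control and NASH mice measured, but no test of these shares passed after adjustment. Of all UMIs, the 10 genes took 0.923% and 0.850% in controls, 1.80%, 2.07% and 2.38% in HFD+F+CCl4 mice and 0.945%, 1.87% and 1.26% in WD+F+CCl4 mice. All 6 NASH mice lay above both controls, WD+F+CCl4 replicate 1 only just, and the difference of 0.833 percentage points did not pass (exact two-sided permutation test over 2 and 6 mice, p = 0.0714, 0.0952 after Benjamini-Hochberg adjustment over 4 values). In suspensions, more cells of a type and more RNA per cell cannot be told apart in such a share.

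B cells held 36.8% and 11.5% of the class II UMIs in controls. They held 0.808%, 1.73% and 0.108% in HFD+F+CCl4 mice and 10.7%, 2.37% and 2.79% in WD+F+CCl4 mice. The 6 NASH mice all lay below both controls, by 21.1 percentage points on average (exact two-sided permutation test, p = 0.0357, the smallest that 2 against 6 mice allow, 0.0714 after adjustment, which does not pass). B cells were 21.0% and 4.15% of the control cells and 0.206% to 10.6% of the cells in NASH mice, so the shares of cells overlapped between the groups.

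Monocytes and macrophages held a larger share in every NASH mouse than in either control. Classical and patrolling monocytes, Trem2 macrophages and Kupffer cells together held 5.97% and 2.73% in controls, 77.5%, 46.7% and 36.7% in HFD+F+CCl4 mice and 32.9%, 44.1% and 66.9% in WD+F+CCl4 mice. The groups did not overlap, and the means differed by 46.5 percentage points (exact two-sided permutation test, p = 0.0357, the smallest possible, 0.0714 after adjustment). They made up 4.59% ± 0.166 of control cells (SD over 2 mice) and 52.9% ± 6.47 of NASH cells (SD over 6 mice). Cells in clusters that took no name are not counted among them. The unnamed clusters 16, 17 and 20 held 2059, 1516 and 976 of the 14956 control cells, against 1, 0 and 56 NASH cells. The Kupffer cell cluster held 9 control cells. Whether unnamed clusters hold macrophages was not tested. Trem2 macrophages alone held 37.9% ± 18.4 in NASH mice (SD, n = 6), between 18.2% and 67.6%, and patrolling monocytes, with about as many cells (19.2% ± 7.86 against 19.0% ± 8.08), held 2.45% ± 1.25 (SD, n = 6 each).

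The 4 DC types together held 26.8% ± 5.14 of the class II UMIs in controls (SD over 2 mice) and 25.8% ± 12.4 in the 6 NASH mice (SD), a difference smaller than the spread between mice. In controls most of it lay in type 1 DCs, with 14.4% and 18.8%, and in NASH mice type 2 DCs held 16.7% ± 10.7 (SD, n = 6), from 1.23% to 28.2%. Clusters that took no name held 23.7% and 49.3% in controls and 9.58% to 23.1% in NASH mice. In control replicate 2 the larger part of this came from cluster 16, with 31.3%, in which hepatocyte and haemoglobin genes led. Cluster 24, led by the cycling-cell genes Top2a and Mki67 and also without a name, held 2.90% and 3.15% in controls and 3.28% to 11.4% in NASH mice.

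**Figure D3:**
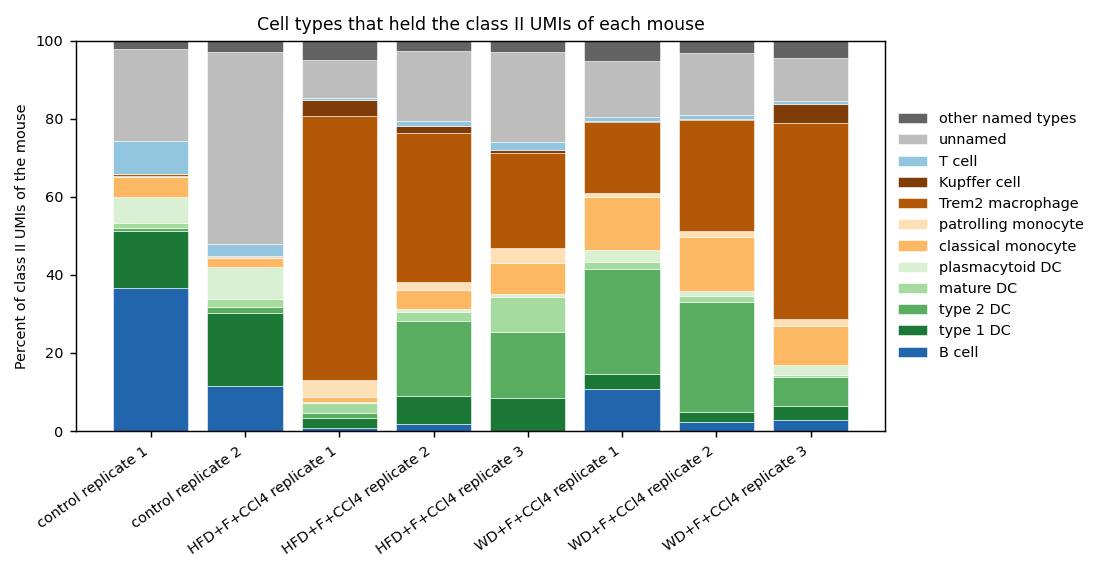
Percent of all UMIs of the 10 class II genes held by each cell type, stacked to 100 for each of the 8 mice. B cells make up 36.8 and 11.5 in the 2 controls and at most 10.7 in NASH mice, and Trem2 macrophages make up 18.2 to 67.6 in NASH mice.

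Within cell types, levels were compared on UMIs summed per mouse in the 9 types with enough cells in both controls, in 1 edgeR quasi-likelihood fit of the 3 groups with Benjamini-Hochberg adjustment over all genes. All 10 members passed the filter on low counts in each of the 9 types. Against control, 17 of the 90 pairs of gene and type were called in HFD+F+CCl4 mice (16 higher and 1 lower), where 3.11% of all such pairs were called, and 15 of 90 in WD+F+CCl4 mice (12 higher and 3 lower), where 4.63% were. All that were higher, except H2-Ab1 in B cells, came from type 2 DCs and mature DCs. These were also the types with the fewest control cells, 23 and 29 in type 2 and 23 and 21 in mature DCs, and both comparisons share the 2 control mice. The count in HFD+F+CCl4 mice was 4 without control replicate 1, 8 without control replicate 2 and 11 without HFD+F+CCl4 replicate 3, and that in WD+F+CCl4 mice 6 without control replicate 1 and 23 without WD+F+CCl4 replicate 3.

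Type 2 DCs had 8 members higher in each model. H2-Aa was at 3159 and 4232 CPM in controls, 10464, 10812 and 11020 in HFD+F+CCl4 mice and 10783, 9853 and 9898 in WD+F+CCl4 mice. All 6 NASH mice lay far above both controls and close to each other. The log2 fold change was 1.94 ± 0.26 in HFD+F+CCl4 mice (SE, adjusted p = 8.15e-05) and 1.88 ± 0.26 in WD+F+CCl4 mice (SE, adjusted p = 0.000138). The 8 of 10 members called compare with all genes, where 2.1% of all 10114 genes were called in HFD+F+CCl4 and 2.82% in WD+F+CCl4 mice. The members had a median log2 fold change of 1.97 and 1.93, against 0.23 in both for all genes, so the genes are not centred on 0 in this type.

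Ciita rose as well. It was at 151 and 168 CPM in control type 2 DCs, 446, 570 and 543 in HFD+F+CCl4 mice and 476, 511 and 492 in WD+F+CCl4 mice, without overlap between control and NASH mice. Its log2 fold change was 2.06 ± 0.31 (SE, adjusted p = 0.000535) and 1.97 ± 0.31 (SE, adjusted p = 0.000693). Cd74 rose by 1.82 ± 0.27 and 1.91 ± 0.27 on the log2 scale (SE, adjusted p = 0.000371 and 0.000180), from 8160 and 9572 CPM in controls to between 23781 and 27315 in the 6 NASH mice. H2-Ab1 (2.09 ± 0.26 and 2.08 ± 0.26, SE) and H2-Eb1 (2.01 ± 0.26 and 1.95 ± 0.26, SE) rose by like amounts.

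Of the loading genes, both H2-O chains rose in type 2 DCs. H2-Oa went from 39.7 and 67.2 CPM in controls to 335, 367 and 303 in HFD+F+CCl4 mice and 255, 267 and 281 in WD+F+CCl4 mice, the largest fold change of the set, at 3.16 ± 0.40 (SE, adjusted p = 5.67e-05) and 2.85 ± 0.41 (SE, adjusted p = 0.000225). H2-Ob was at 55.6 and 134 CPM in controls and at 156 to 238 in NASH mice. H2-DMb2 was at 71.4 and 33.6 in controls and at 169 to 241 in NASH mice, a log2 fold change of 2.05 ± 0.43 and 1.96 ± 0.43 (SE, adjusted p = 0.0110 and 0.0127). H2-DMa did not differ by the test: it was at 873 and 806 CPM in controls and at 835 to 981 in NASH mice (log2 fold change 0.41 ± 0.24 and 0.32 ± 0.23, SE, adjusted p = 0.455 and 0.536). H2-DMb1, at 421 and 470 CPM in controls and 549 to 729 in NASH mice, did not pass either (adjusted p = 0.0914 and 0.0720). H2-DM per 100 UMIs of the H2-A and H2-E chains was 14.4 ± 3.53 in control mice (SD over 2 mice), and 6.02 ± 0.429 in the 6 NASH mice (SD).

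The control cells of this type differed from the NASH cells in other markers too. Irf8, a transcription factor of type 1 and plasmacytoid DCs, was at 1008 and 1310 CPM in controls and at 112 to 225 in NASH mice (log2 fold change -2.57 ± 0.24 and -2.82 ± 0.23, SE, adjusted p = 6.03e-07 and 1.24e-07). The 5 plasmacytoid DC markers summed to 638 and 945 CPM in controls and to 155 to 446 in NASH mice. The 5 type 2 DC markers summed to 907 to 1024 and 702 to 1491, and Cd209a, a type 2 DC marker, was at 413 and 403 against 296 to 814. The 5 classical monocyte markers summed to 1167 and 2015 CPM in controls, above the type 2 DC markers there, and to 840 to 1704 in NASH mice. The 5 type 1 DC markers summed to 325 and 1075 CPM in controls and to 321 to 671 in NASH mice. The 6 NK cell markers were all at 0 in 1 control mouse and summed to 571 in the other. Whether other cells make up part of the control values was not tested.

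When type 1 and type 2 DCs were joined before summing, an alternative chosen after the data were seen, few calls remained. The joined cells numbered 345 type 1 and 52 type 2 DCs in controls. They numbered 456 and 1275 in HFD+F+CCl4 mice and 196 and 1596 in WD+F+CCl4 mice. This joined fit thus compares different mixes of the 2 types and cannot show whether type 2 DCs themselves changed. H2-Oa was called in HFD+F+CCl4 mice (log2 fold change 0.91 ± 0.21, SE, adjusted p = 0.0381), where 2.95% of all genes were called, and H2-DMb2 in WD+F+CCl4 mice (0.95 ± 0.24, SE, adjusted p = 0.0309), where 8.18% were. Ciita had 0.21 ± 0.22 and 0.21 ± 0.21 (SE), H2-Aa 0.46 ± 0.24 and 0.44 ± 0.24 (SE), and H2-Ob turned to -0.09 ± 0.18 (SE) in WD+F+CCl4 mice. Type 1 DCs by themselves had 0 of 10 members called by edgeR in either model, where 4.17% and 3.65% of genes were called, with 2 unadjusted p-values under 0.05 in each. Without control replicate 1, H2-Aa, H2-Ab1, H2-Eb1 and Cd74 stayed called in type 2 DCs in both models, while Ciita (adjusted p = 0.124 and 0.127), H2-Oa (0.122 and 0.164), H2-DMb2 (0.312 and 0.291) and H2-Ob (0.680 and 0.723) did not. Without control replicate 2, H2-DMb2 was lost in both models (adjusted p = 0.0703 and 0.0690) and H2-Ob in WD+F+CCl4 mice (0.0594), and H2-Ob was lost there too without WD+F+CCl4 replicate 1 (0.0531) or 2 (0.0851).

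Mature DCs, the migratory Ccr7-expressing state, also had higher levels in NASH mice. H2-Ab1 was at 2780 and 2906 CPM in controls, 7717, 8306 and 9162 in HFD+F+CCl4 mice and 8171, 8057 and 5844 in WD+F+CCl4 mice. Every NASH mouse was above both controls, with WD+F+CCl4 replicate 3 the lowest of the 6. The log2 fold change was 1.62 ± 0.30 (SE, adjusted p = 0.00688) and 1.44 ± 0.30 (SE, adjusted p = 0.0180). Ciita was at 97.4 and 92.2 CPM in controls, 448, 398 and 436 in HFD+F+CCl4 mice and 293, 406 and 393 in WD+F+CCl4 mice, with no overlap (2.16 ± 0.32 and 1.94 ± 0.33, SE, adjusted p = 0.00114 and 0.00600).

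In HFD+F+CCl4 mice 8 of 10 members were called higher in mature DCs, where 3.51% of all 4528 genes were called, and in WD+F+CCl4 mice 3 of 10, where 2.14% were. The 3 were Ciita, H2-Ab1 and H2-DMa, and all 10 members had an unadjusted p under 0.05 in both models. H2-DMa was at 127 and 138 CPM in controls and at 262 to 498 in NASH mice (log2 fold change 1.76 in HFD+F+CCl4 mice, adjusted p = 0.0115, and 1.45 in WD+F+CCl4 mice, adjusted p = 0.0445). H2-Ob, at 77.9 and 23.1 CPM in controls and 109 to 188 in NASH mice, and H2-DMb2, at 63.3 and 161 in controls and 141 to 313, were not called in either model. The median over members in WD+F+CCl4 mice was 1.43, against 0.06 for all genes. The call of H2-Ab1 in HFD+F+CCl4 mice ended without control replicate 1 (adjusted p = 0.122) or 2 (0.0903), and without control replicate 1 no member stayed called. Without control replicate 2 Ciita stayed (adjusted p = 0.0157 and 0.0404) and H2-DMa did not (0.0720 and 0.161).

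Single NASH mice also carried some of these calls. Cd74 and H2-Aa in HFD+F+CCl4 mature DCs were lost without HFD+F+CCl4 replicate 2 (adjusted p = 0.0805 and 0.0597) or 3 (0.105 and 0.0849), and without WD+F+CCl4 replicate 1 (0.0958 and 0.0580) or 2 (0.0726 and 0.0505). H2-Eb1 and H2-Oa were lost without HFD+F+CCl4 replicate 2 (0.0533 and 0.0715) or 3 (0.0781 and 0.0573), H2-Oa without WD+F+CCl4 replicate 1 (0.0530), and H2-DMb1 without HFD+F+CCl4 replicate 3 (0.0914). In WD+F+CCl4 mice H2-Ab1 was lost without WD+F+CCl4 replicate 1 (0.0730) or 2 (0.0764), and H2-DMa without HFD+F+CCl4 replicate 2 (0.0522) or 3 (0.0512) or WD+F+CCl4 replicate 1 (0.0656) or 2 (0.146). Signs of other cells moved with the groups here as well. The 6 T cell markers summed to 964 and 1199 CPM in control mature DCs, with none at 0, and to 37.2 to 166 in NASH mice, with up to 3 at 0, and the 6 mature DC markers to 5473 and 9362 against 3098 to 4649. Their part in the result was not tested.

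**Figure D4:**
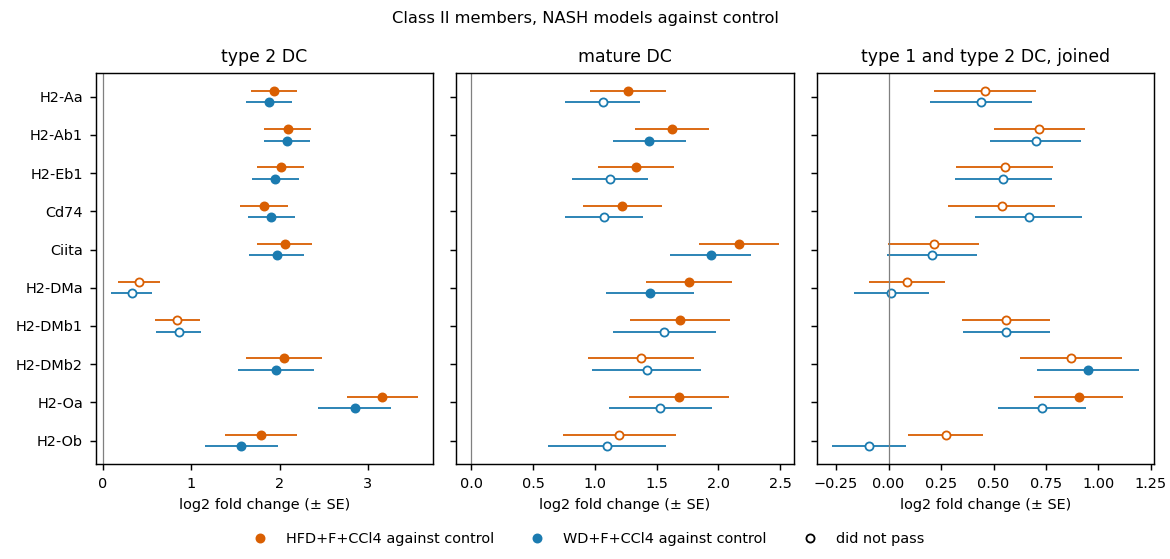
Log2 fold change against control with its SE (horizontal axis, scaled separately in each panel) for the 10 members in type 2 DCs, in mature DCs and in type 1 and type 2 DCs joined; filled points passed an adjusted p of 0.05 and open points did not. H2-Oa reaches 3.16 in type 2 DCs, where 8 members are filled in each model, and 1 member is filled in each model after joining. The joined cells were mostly type 1 DCs in controls and mostly type 2 DCs in NASH mice.

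In plasmacytoid DCs, the interferon-producing DC type, H2-Ob was lower in both models. Its log2 fold change was also negative in both models in T cells, endothelial cells and classical monocytes. Of these, only classical monocytes of WD+F+CCl4 mice passed the test. H2-Ob in plasmacytoid DCs was at 51.3 and 61.3 CPM in controls, 14.7, 18.02 and 14.5 in HFD+F+CCl4 mice and 10.4, 18.4 and 9.67 in WD+F+CCl4 mice. Both controls lay above every NASH mouse. The log2 fold change was -1.79 ± 0.36 (SE, adjusted p = 0.0132) and -2.09 ± 0.32 (SE, adjusted p = 0.000746). This was the 1 member of 10 called in HFD+F+CCl4 mice, where 3.59% of genes were called. In WD+F+CCl4 mice 2 of 10 were called, where 7.89% were.

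The other was H2-DMb2, at 60.0 and 76.0 CPM in controls, 73.6, 31.2 and 50.2 in HFD+F+CCl4 mice and 19.2, 36.7 and 29.6 in WD+F+CCl4 mice (log2 fold change -1.17 ± 0.31, SE, adjusted p = 0.0284). The B cell genes moved the same way. The 7 B cell markers summed to 550 and 581 CPM in control plasmacytoid DCs, with none at 0, and to 74.0 to 175 in NASH mice, with up to 5 at 0, and the 6 T cell markers to 767 and 1154 against 58.9 to 241. H2-Ob was below the T cells of the same mouse in 2 of 8 mice and at a median of 1.34 times their level, and the part of B cell RNA in this difference was not tested. In HFD+F+CCl4 mice the call was lost without control replicate 1 (adjusted p = 0.0738) or 2 (0.0519), or without HFD+F+CCl4 replicate 2 (0.0750) or 3 (0.102). For H2-DMb2 it was lost without control replicate 1 (0.125) or 2 (0.125) or WD+F+CCl4 replicate 1 (0.120).

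**Figure D5:**
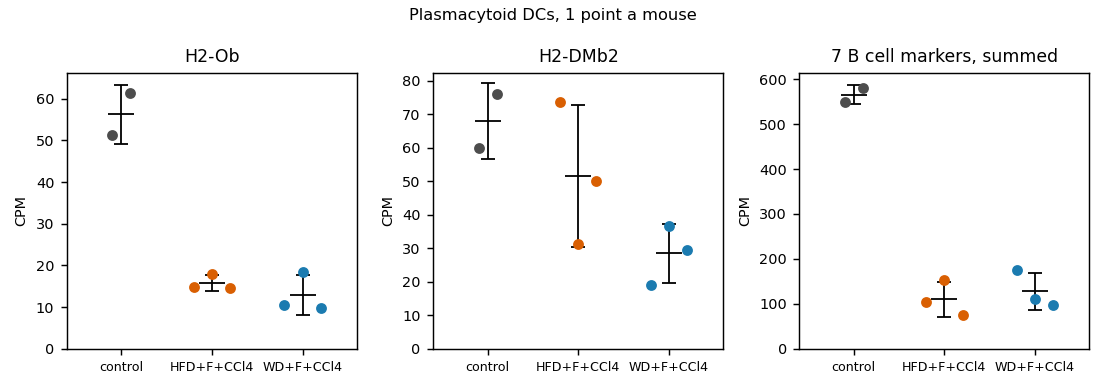
CPM of H2-Ob, of H2-DMb2 and of 7 B cell markers summed, in plasmacytoid DCs of each mouse; points are mice, and lines are means with the SD. H2-Ob and the B cell markers are both high in the 2 controls (51.3 and 61.3, and 550 and 581) and low in all 6 NASH mice.

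In classical monocytes 1 of 10 members was called, in WD+F+CCl4 mice, where 10.7% of all genes were. H2-Ob was at 14.8 and 44.3 CPM in controls, 6.22, 10.3 and 8.12 in HFD+F+CCl4 mice and 4.07, 6.09 and 5.78 in WD+F+CCl4 mice (log2 fold change -2.01 ± 0.41, SE, adjusted p = 0.0123). It was below the T cells of the same mouse in all 8 mice, so these values are at background, and at a clustering resolution of 0.42 the log2 fold change turned to 7.62 (8.35 in HFD+F+CCl4 mice), neither past the threshold. None was called by edgeR in HFD+F+CCl4 mice, where 5.28% were, with 4 unadjusted p-values under 0.05. H2-Aa was at 1610 and 771 CPM in controls, 1706, 2316 and 2371 in HFD+F+CCl4 mice and 586, 1384 and 1690 in WD+F+CCl4 mice, and the groups overlapped. Different clusters held most of the type in controls (cluster 33) and in NASH mice (clusters 1 and 13). Pooled over mice, the summed level of the H2-A and H2-E chains in controls was 2169 CPM in cluster 33 and 9102 in cluster 13. It was 3157 in cluster 1 and 16405 in cluster 13 of HFD+F+CCl4 mice, and 1465 and 5305 in WD+F+CCl4 mice. The level of the type in a mouse thus also depends on its mix of these clusters.

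In B cells 1 member, H2-Ab1, differed by the test. It was at 2298 and 1939 CPM in controls, 3203, 3378 and 3194 in HFD+F+CCl4 mice and 3453, 3201 and 3371 in WD+F+CCl4 mice. All 6 NASH mice lay above both controls. The log2 fold change was 0.88 ± 0.24 in WD+F+CCl4 mice (SE, adjusted p = 0.0407), 1 of 10 members where 4.9% of genes were called, and 0.62 in HFD+F+CCl4 mice (adjusted p = 0.232), 0 of 10 by edgeR where 2.21% were, with 1 unadjusted p under 0.05. Leaving out any of control replicates 1 (adjusted p = 0.0586) and 2 (0.250) or WD+F+CCl4 replicates 1 (0.126), 2 (0.133) and 3 (0.0561) ended the call, and most control B cells lay in cluster 14 and most NASH B cells in cluster 12.

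The H2-O to H2-DM ratio in B cells did not differ between control and NASH mice by the test. It was 0.905 and 0.862 in controls, 0.656, 0.868 and 0.731 in HFD+F+CCl4 mice and 0.841, 0.925 and 0.760 in WD+F+CCl4 mice. The groups overlapped, with a difference of -0.0863 (exact two-sided permutation test, p = 0.321, 0.321 after adjustment). H2-Ob itself was at 717 and 606 CPM in control B cells and at 535 to 652 in NASH mice.

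T cells, endothelial cells and cholangiocytes had 0 of 10 members called by edgeR against control in either model, where 5.03% and 5.25%, 1.33% and 1.06%, and 0.488% and 0.622% of genes were called. Unadjusted p-values under 0.05 numbered 1 and 1 in T cells, 4 and 3 in endothelial cells and 5 and 5 in cholangiocytes. The log2 fold change of H2-Ob (HFD+F+CCl4 first) was -1.29 and -1.54 in T cells and -2.83 and -2.01 in endothelial cells. In cholangiocytes it was -3.29 and -0.30, in B cells -0.13 and 0.07, and in type 1 DCs 0.33 and -0.08. It was positive in type 2 and mature DCs. H2-DMb2 had -2.18 and -2.22 in endothelial cells and 0.08 and 0.07 in T cells. Whether a fall shared between types forms part of that in plasmacytoid DCs was not tested.

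Between the models, 0 of 90 pairs of gene and type were called by edgeR and 0 by DESeq2, where edgeR called 0.0326% of all pairs (0.178% of genes in type 2 DCs, 0.0907% in B cells, 0.0282% in type 1 DCs and none in the other 6 types), with 11 unadjusted p-values under 0.05, and 3 were called without WD+F+CCl4 replicate 3. Another 6 types had too few control cells and were compared between the models alone, a comparison added after the data were seen. There edgeR called 0 of 53 pairs, with 24 unadjusted p-values under 0.05, and at most 0.0171% of genes in any of the 6 types. It called 3 pairs without HFD+F+CCl4 replicate 2, and 3 when WD+F+CCl4 replicate 2 was left out, all lower in WD+F+CCl4 mice. H2-Aa in Trem2 macrophages was at 5982, 4348 and 8852 CPM in HFD+F+CCl4 mice and at 1786, 4381 and 4188 in WD+F+CCl4 mice. The models overlapped, and in these cells all 10 members had a negative log2 fold change, with a median of -0.94. The 5 classical monocyte markers summed there to 814, 1320 and 899 CPM in HFD+F+CCl4 mice. In WD+F+CCl4 mice they summed to 2936, 2821 and 1503, and their part in the difference was not tested. H2-Aa in Kupffer cells was at 2399, 1887 and 6161 CPM in HFD+F+CCl4 mice and at 896 and 1020 in 2 WD+F+CCl4 mice.

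In patrolling monocytes H2-Aa and H2-Eb1 did not overlap between the models. H2-Aa was at 894, 788 and 885 CPM in HFD+F+CCl4 mice and at 360, 618 and 369 in WD+F+CCl4 mice, and H2-Eb1 at 636, 655 and 714 and at 305, 471 and 283. DESeq2 called 3 of 10 members lower in WD+F+CCl4 mice, where it called 0.233% of genes: H2-Aa (log2 fold change -0.93, adjusted p = 0.00515), H2-Eb1 (-0.92, adjusted p = 0.00365) and H2-Ab1 (-0.79, adjusted p = 0.0339). It also called H2-Aa and H2-Eb1 in NK cells (2 of 8, where 0.0813% were), and none in Trem2 macrophages, granulocytes, hepatocytes and Kupffer cells, where 0.391%, 0.198%, 0.188% and 0 of the genes were called. In patrolling monocytes and NK cells the summed level of the H2-A and H2-E chains was at a median of 1.05 and 1.73 times that of T cells. The T cells themselves had a median log2 fold change of -0.49 over the members in the same comparison, and its part in the difference was not tested. Cluster 4 of the patrolling monocytes and cluster 8 of the Trem2 macrophages came mostly from HFD+F+CCl4 replicate 1 (79.5% and 88.2% of their cells), and edgeR called 0 members without them too.

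Other genes of the pathway were counted over the same 9 types, where 3.11% (HFD+F+CCl4) and 4.63% (WD+F+CCl4) of all pairs of gene and type were called against control. Of 6 endosomal proteases and reductases that prepare peptides and cut Cd74, 18 of 54 pairs were higher and 0 lower in HFD+F+CCl4 mice, and 22 higher and 0 lower in WD+F+CCl4 mice. Ctss, the protease that completes the cutting of Cd74, rose in type 2 DCs (log2 fold change 1.67 ± 0.26, SE, adjusted p = 0.000607, and 1.79 ± 0.26, SE, adjusted p = 0.000209) and in mature DCs (1.63 and 1.45, adjusted p = 0.00800 and 0.0200). It rose as much in T cells (2.03 and 1.67, adjusted p = 0.00305 and 0.00755) and in endothelial cells (2.42 and 2.70, adjusted p = 0.0447 and 0.0461). Lyz2 was present in T cells, as given above, and its part in these rises was not tested. Ctsd (2.65 and 3.30, adjusted p = 0.00828 and 0.00168) and Lgmn (2.08 and 2.74, adjusted p = 0.0198 and 0.00307) rose in classical monocytes.

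Of the transcription factors of class II genes, 7 of 91 pairs were higher and 4 lower in HFD+F+CCl4 mice, where 3.11% of all pairs were called, and 4 higher and 4 lower in WD+F+CCl4 mice, where 4.63% were. Spi1, the myeloid factor PU.1, rose in type 2 DCs of HFD+F+CCl4 mice (1.39 ± 0.30, SE, adjusted p = 0.0118), and Irf4 fell in classical monocytes (-2.02 ± 0.35 and -2.61 ± 0.33, SE, adjusted p = 0.0107 and 0.00126). Of the interferon-γ pathway, which induces Ciita, 1 of 63 pairs was higher and 5 lower in HFD+F+CCl4 mice, and 2 higher and 9 lower in WD+F+CCl4 mice. Class I presentation genes gave 4 of 90 pairs higher and 2 lower, and 7 higher and 2 lower, with the immunoproteasome subunit Psmb8 higher in type 1 DCs (1.14 ± 0.24 and 1.26 ± 0.24, SE, adjusted p = 0.0110 and 0.00691).

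The co-stimulatory ligands and receptors gave 1 of 37 pairs higher and 1 lower in HFD+F+CCl4 mice and 0 higher and 1 lower in WD+F+CCl4 mice, shares near the 3.11% and 4.63% of all pairs. Cd40 fell in type 1 DCs (-1.36 ± 0.38 and -1.71 ± 0.44, SE, adjusted p = 0.0495 and 0.0371). Genes that turn class II molecules over gave 0 of 22 pairs called by edgeR in HFD+F+CCl4 mice, with 5 unadjusted p-values under 0.05, and 1 lower in WD+F+CCl4 mice, and Cd4 and Lag3, which bind class II molecules, gave 1 of 9 higher in HFD+F+CCl4 mice and 2 lower in WD+F+CCl4 mice. Between the models 0 pairs of these 7 lists were called by edgeR.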

How the data were processed

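Single-cell libraries, 1 for each of the 8 mice, were made with the 10x Genomics 3' v3 kit after enzymatic dissociation, red cell lysis and removal of dead cells. The deposited values are raw UMI counts per gene and barcode, made by the authors with bcl2fastq 2.20 and Cell Ranger on a mouse GRCm38 reference, per the labels. The labels give Cell Ranger no version, and the file headers and the methods name different ones. Groups were taken from the labels. The authors' cell type names were not used here.

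A barcode was kept above 500 genes and below a mitochondrial share of 25%. With the class II genes left out, cells were clustered on 2000 variable genes, reduced to 30 components, by the Leiden method over 20 nearest neighbours, and a resolution of 1 (scanpy 1.11.5, leidenalg 0.10.2) gave 43 clusters, named from at least 3 leading markers per type. Clusters led by non-immune markers in which at least 50% of cells had Ptprc UMIs, and those with over 50% of cells scored as doublets, took no name. Doublets (7452 cells, 0.8% per 1000 barcodes, by rank of a Scrublet-type score) were kept in the main analysis and removed in an alternative. The naming rules were revised after a first pass in which class II levels of some clusters had been seen, and before any test of the members. The members and lists were chosen with earlier results of these data known.

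UMIs were summed per mouse and type (at least 20 cells) and tested in edgeR 4.0.16 by quasi-likelihood with TMM factors, its default filter and Benjamini-Hochberg adjustment over all genes of a type, with an adjusted p of 0.05 as the threshold. DESeq2 1.42.0 was an alternative. Single values were compared by exact permutation over mice. The fits were tested on simulated data. Joining type 1 and type 2 DCs, leaving out clusters with at least 75% of cells from 1 NASH mouse, and the fits on NASH mice alone were chosen after seeing the data. All 10 members were named, other list genes only where called (at most 3 rises and 3 falls per type), and like genes by the highest Pearson r. Intervals between mice rest on 2 controls, and shares of cells with a UMI cover counting error only.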

Additional observations from a re-analysis of the deposited data

Results flagged for a closer look

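Among the 6 NASH mice, the share of class II UMIs held by B cells was 10.7% in WD+F+CCl4 replicate 1 and at most 2.79% in the others, so this mouse lay far from the rest of its group. Chance sets a sample apart in this way in about 1 in 20 groups.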

How the results depend on the processing

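The shares of class II UMIs and the H2-O to H2-DM ratio in B cells kept their direction in every alternative run. These tests are too small for the side of the threshold to say anything about stability, since 0.0357 is the smallest p for 2 against 6 mice and leaving out a control leaves 1 against 6. Their differences ranged over 0.593 to 0.988 percentage points for the share of all UMIs, -33.7 to -8.46 for B cells and 34.4 to 50.04 for monocytes and macrophages, and over -0.183 to -0.0463 for the ratio. Of the 32 calls against control, DESeq2 kept 29, RLE factors 31, a mitochondrial limit of 10% all 32, and fits of 2 groups only 27. The 17 calls in HFD+F+CCl4 mice became 30 without the filter on low counts, 1 with more than 1000 genes per cell, 8 without doublets, 10 with type 1 and type 2 DCs joined, and 4 to 18 when 1 mouse was left out. The 15 in WD+F+CCl4 mice became 27, 2, 4 and 8 in these settings, and 6 to 23 when 1 mouse was left out. Between the models the count of 0 became 6 without the filter and 0 to 3 when 1 mouse was left out. In the types with too few control cells the count of 0 became 5 with DESeq2, 19 without the filter, 1 without doublets and 0 to 3 when 1 mouse was left out. The replicate numbers did not pair the mice (same-numbered mice correlated with r between -0.592 and 0.0662 over 8815 genes). With the replicate block the calls numbered 11 in HFD+F+CCl4 mice, 14 in WD+F+CCl4 mice, 0 between the models and 6 in the types with too few control cells. H2-Ob in classical monocytes turned to 8.35 and 7.62 on the log2 scale at clustering resolution 0.42, and H2-Ob in type 2 DCs of WD+F+CCl4 mice to -0.0934 with the DC types joined. The cause was not tested. Fewer types had enough control cells in some settings: type 2 DCs did not enter without doublets or with class II genes kept in the clustering, and 5 types entered with more than 1000 genes per cell. Depth limits control replicate 2 most, with a median of 992.5 UMIs per cell.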
